A study of Mus musculus with 6 samples.

Results

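Guanylate-binding proteins (GBPs) and immunity-related GTPases (IRGs) are GTP-hydrolysing enzymes that mouse cells make in large amounts after exposure to interferon gamma. Binding of interferon gamma to its receptor activates JAK kinases and, through them, transcription factors of the STAT and IRF families that switch on GBP and IRG genes. GBP proteins assemble on the vacuoles of intracellular parasites and bacteria, help to break them open and promote inflammasome activation. The IRG family holds effector proteins that attack such vacuoles and regulatory proteins, Irgm1, Igtp (also called Irgm3) and Irgm2, that keep the effectors inactive on the cell's own membranes.

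The 10 genes described here are Gbp2, Gbp3, Gbp4, Gbp5, Gbp6, Gbp7, Gbp8, Gbp9, Igtp and Irgm1. They were picked by gene symbol from the 55487 genes of the deposited count table, and each symbol matched a gene there. All 10 passed the filter on low counts, which kept 14481 genes for testing. Gbp6 reached the filter's level in all 3 WT libraries but in 2 of 3 KO libraries.

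The libraries hold mRNA of mouse bone marrow cells labelled acute lymphoblastic leukaemia, sorted for GFP, the marker followed in the blood of the transplanted mice, and for the B-lineage surface protein B220. The groups were WT and KO, with 3 libraries each: WT replicates 1, 3 and 4, and KO replicates 2, 3 and 4. KO stands for deletion of miR-182, a microRNA, and both groups carry the same time label, Day 0. The series' design text names BCR-ABL (P190) as the driver of its B-cell model and Notch as that of its T-cell model. The transplanted mice were 6 to 8 weeks old, and GFP in blood was followed from week 3. The labels do not give the strain, the knockout allele, or whether libraries came from separate donors or recipients, so that p-values measure the spread between these libraries, which may be technical.

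Library totals ran from 17704382 to 29237035 counts. Mir182 had 0 counts in all 6 libraries, so that the genotype labels could not be checked on it. B-lineage markers were abundant in both groups, with summed levels of 7708 to 8151 CPM (counts scaled to a common library size) in WT and 7400 to 8446 CPM in KO libraries. Of their 12 tested genes, 3 were lower in KO, among them Ptprc, which encodes the CD45 protein that carries B220, and 4 were higher, among them Pax5. Markers of other cell types also differed: all 16 neutrophil markers and 11 of 14 tested monocyte and macrophage markers were lower in KO. Of the neutrophil markers, Elane and Mpo overlapped between groups and were called under 9 of 18 alternative analyses each. Prtn3 was called under 13 of them. Among all tested genes, edgeR called 7599 between genotypes at an adjusted p below 0.05, of which 4133 had lower and 3466 had higher levels in KO. Without TMM factors, on library totals alone, 4542 were higher and 3501 lower.

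The promoters are shown because GBP and IRG genes are textbook targets of STAT and IRF factors, and because genes that fell in KO and genes that did not can be read side by side. The RefSeq promoter table (GRCm38.p6) held 6 of the 10 genes, with windows from 250 bases before to 50 bases after the annotated start. Each line gives a stretch of 60 bases from the part before the start, 5′ to 3′ on the gene's strand. The lines of Igtp and Irgm1 end 1 base before the start. Those of Gbp3, Gbp7, Gbp2 and Gbp5 end 11, 19, 25 and 131 bases before it. Capitals mark every match to the core of the interferon-stimulated response element (ISRE), which is TTTC, any 2 bases and TTTC again, on either strand. Overlapping matches were joined. The RefSeq starts of Gbp2, Gbp3, Gbp5 and Irgm1 lie inside the spans that the deposited table gives for these genes, that of Gbp5 farthest. The printed lines of Gbp5 and Irgm1 lie wholly within those spans.
Gbp2 (chr3:142620579-142620638, plus strand): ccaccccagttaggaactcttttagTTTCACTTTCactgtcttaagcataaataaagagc
Gbp3 (chr3:142559974-142560033, plus strand): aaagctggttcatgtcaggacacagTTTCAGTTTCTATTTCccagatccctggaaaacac
Gbp5 (chr3:142496744-142496803, plus strand): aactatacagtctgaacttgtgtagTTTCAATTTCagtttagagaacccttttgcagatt
Gbp7 (chr3:142530258-142530317, plus strand): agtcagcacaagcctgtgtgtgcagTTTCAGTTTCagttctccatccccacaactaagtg
Igtp (chr11:58199496-58199555, plus strand): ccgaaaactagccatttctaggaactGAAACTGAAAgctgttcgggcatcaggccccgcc
Irgm1 (chr11:48871421-48871480, minus strand): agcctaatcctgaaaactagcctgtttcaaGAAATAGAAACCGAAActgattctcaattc

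All 6 genes held the ISRE core in at least 1 promoter window, against 3.44% of 32851 promoters in the same table. The first match began 59 bases before the start in Gbp2, 45 in Gbp3, 165 in Gbp5, 53 in Gbp7, 34 in Igtp and 30 in Irgm1. Gbp3 and Irgm1 held 2 overlapping matches each, and a second annotated promoter of Gbp3 held none. The gamma-activated sequence (GAS), TTCNNNGAA, a motif of the STAT family, stood in 8.30% of all promoters. It matched 2 times in Gbp5, 2 times in Gbp7 and 1 time in Igtp, where it began 45 bases before the start, and it had no match in the windows of Gbp2, Gbp3 and Irgm1. The same 10 letters of the ISRE core, tttcagtttc, stood in Gbp3 and Gbp7, whose transcripts did not pass the test between genotypes. They also stood in Igtp, which fell, on the opposite strand, where they read gaaactgaaa on the gene's strand. A match of letters is a description of the sequence and not a binding site.

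Of the 10 genes, 6 were lower in KO (Gbp2, Gbp4, Gbp5, Gbp6, Igtp and Irgm1) and 0 were higher, and 4 did not pass the test (Gbp3, Gbp7, Gbp8 and Gbp9). Among all tested genes 28.5% were lower, 23.9% were higher and 52.5% differed in either direction. The count of higher genes was also 0 at an unadjusted p below 0.05 and by DESeq2 and limma. At least 2-fold lower were 4 of the 10 (Gbp2, Gbp4, Gbp6 and Igtp), against 14.6% of all tested genes. The groups did not overlap for 7 of the 10, against 64.0% of all tested genes. The median log2 fold change of the 10 was -1.12, and that of all tested genes was -0.0015.

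**Figure D1:**
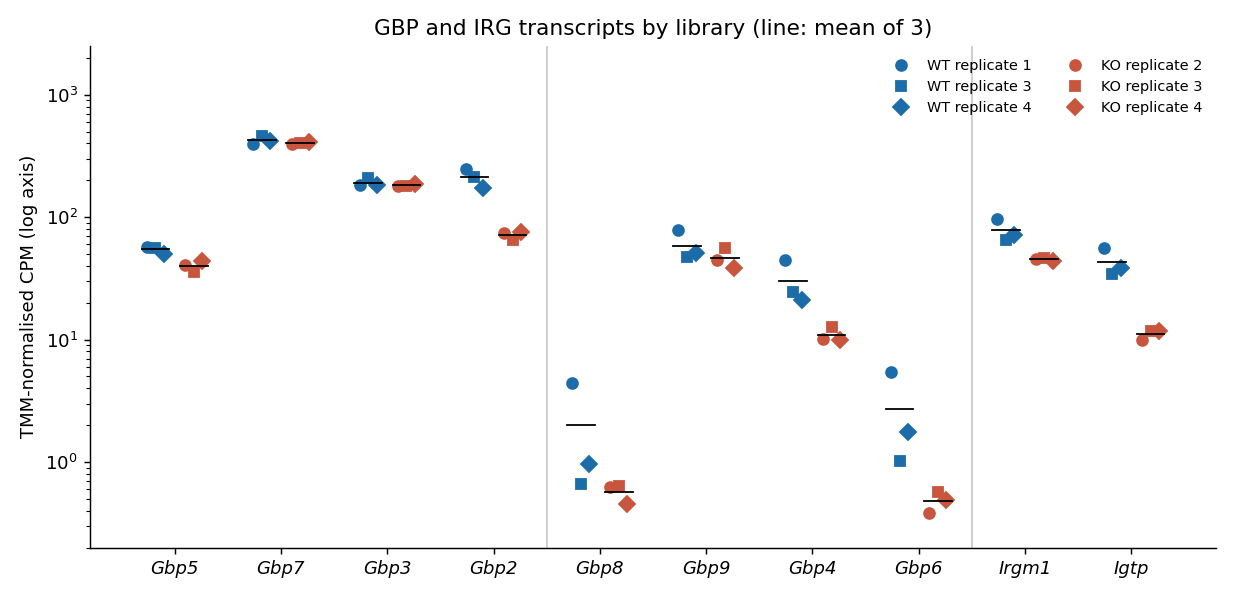
Level of each of the 10 GBP and IRG transcripts (TMM-normalised CPM, log axis) in each of the 6 libraries, with WT in blue, KO in red and a line at the mean of 3. From left to right the sections hold the genes of chromosomes 3, 5 and 11. Gbp7 and Gbp3 stay level, while Gbp2 lies between 171 and 249 CPM in WT and between 65.6 and 75.2 CPM in KO.

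The chromosome 3 genes differed among themselves. Gbp2, a GBP that is recruited to parasite vacuoles (ENSMUSG00000028270, chr3:142620602-142638008, plus strand, GRCm38.p6), measured 249, 214 and 171 CPM in WT replicates 1, 3 and 4. It measured 74.7, 65.6 and 75.2 CPM in KO replicates 2, 3 and 4. Every WT library lay above every KO library. The means were 211 ± 38.7 (SD, n = 3) and 71.8 ± 5.38 CPM, a fall of 2.94-fold (log2 fold change -1.56, SE 0.14, edgeR adjusted p = 0.000316).

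Gbp5, which is known to promote activation of the NLRP3 inflammasome (ENSMUSG00000105504, chr3:142493978-142522344), measured 57.5, 55.4 and 50.4 CPM in WT and 40.7, 35.6 and 43.9 CPM in KO. The groups did not overlap, and the fall was small: 54.5 ± 3.66 against 40.1 ± 4.17 CPM, log2 fold change -0.44 (SE 0.10, edgeR adjusted p = 0.00983). Gbp7, a GBP of the same cluster with a role in defence against intracellular pathogens (ENSMUSG00000040253, chr3:142530342-142550149), measured 397, 462 and 419 CPM in WT and 395, 399 and 413 CPM in KO. Gbp3 (ENSMUSG00000028268, chr3:142560026-142573209) measured 183, 209 and 184 CPM in WT and 181, 180 and 185 CPM in KO. For both genes the groups overlapped. The log2 fold change of Gbp7 was -0.08 (95% interval -0.28 to 0.11, edgeR adjusted p = 0.429), and on library totals alone, which moved the median of all genes to 0.11, it was 0.03. That of Gbp3 was -0.08 (95% interval -0.26 to 0.10, edgeR adjusted p = 0.433), and on library totals alone it was 0.04. Both intervals exclude a fall of the size seen in Gbp2, whose own interval ran from -1.89 to -1.22.

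The level of Gbp2 relative to its neighbours was read within each library, in CPM with no length correction. The ratio of Gbp2 to Gbp3 was 1.36, 1.03 and 0.931 in WT and 0.413, 0.366 and 0.405 in KO libraries. Its ratio to Gbp7 was 0.500 ± 0.113 in WT and 0.178 ± 0.0128 in KO (SD, n = 3). These ratios and those of Igtp to Irgm1 and Gbp4 to Gbp9 below were chosen after their values were seen. None of the 4 overlapped between groups, and single genes did not overlap in 64.0% of all tested genes. Each ratio gave p = 0.1 in a two-sided exact permutation test, also after Benjamini-Hochberg adjustment over the 4. That is the smallest value that 3 against 3 libraries allow. With no overlap that value was fixed, so the test and its adjustment add no support to ratios chosen in this way.

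On chromosome 5, Gbp4 (ENSMUSG00000079363, chr5:105115767-105139586, minus strand) measured 44.5, 24.3 and 20.9 CPM in WT and 10.1, 12.6 and 9.86 CPM in KO. WT replicate 1 stood highest, and the groups did not overlap. The log2 fold change was -1.46 (SE 0.29, edgeR adjusted p = 0.00558), and without WT replicate 1 it was -1.07 (adjusted p = 0.00228). Gbp9 (ENSMUSG00000029298, chr5:105077630-105139539) measured 77.8, 47.2 and 50.7 CPM in WT and 44.5, 55.7 and 38.4 CPM in KO. Its groups overlapped, and it did not pass the test (log2 fold change -0.34, 95% interval -0.86 to 0.17, edgeR adjusted p = 0.224). Without WT replicate 1 its log2 fold change was -0.09. The ratio of Gbp4 to Gbp9 was 0.500 ± 0.0807 in WT and 0.236 ± 0.0177 in KO.

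Gbp6 and Gbp8 were the rarest transcripts of the 10. Gbp6 (ENSMUSG00000104713, chr5:105270702-105293698) had 89, 23 and 31 counts in WT and 8, 16 and 15 counts in KO, or 5.40, 1.01 and 1.77 CPM against 0.382, 0.568 and 0.490 CPM. All WT values lay above all KO values, and WT replicate 1 was 3.88 times the mean of the other WT libraries. The log2 fold change was -2.46 (SE 0.65, edgeR adjusted p = 0.0168). It was -1.49 without WT replicate 1 (adjusted p = 0.0148), and the call was lost without KO replicate 2 (adjusted p = 0.0555) or without KO replicate 4 (adjusted p = 0.0520). Gbp8 (ENSMUSG00000034438, chr5:105014150-105139540) had 73, 15 and 17 counts in WT and 13, 18 and 14 counts in KO, or 4.43, 0.661 and 0.972 CPM against 0.621, 0.639 and 0.457 CPM. Its groups did not overlap by a narrow margin, between 0.661 and 0.639 CPM. It did not pass the test (log2 fold change -1.79, SE 0.73, edgeR adjusted p = 0.0758). Its value rested on WT replicate 1, without which it was -0.50 (adjusted p = 0.256), while without WT replicate 3 it was -2.23 and passed (adjusted p = 0.0205). DESeq2 called it at an adjusted p of 0.0367, and edgeR with no filter on low counts at 0.0350.

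Counts of the chromosome 5 genes carry a further limit, since their annotations overlap on the same strand: Gbp8 and Gbp9 share a span of 61910 bases, and Gbp4 shares 23774 bases with Gbp8. Of all stretches of 50 bases in the GENCODE M21 transcripts of Gbp6, 70.7% also occur in another gene, chiefly Gm43302 (65.0%, with 0 counts in all libraries) and Gbp10 (45.9%). The share was 18.1% for Gbp8, 8.05% for Gbp9 and 7.78% for Gbp4. It was 12.7% for Gbp7, 11.8% for Igtp, 3.75% for Gbp3, 2.03% for Gbp2, 1.44% for Gbp5 and 0.379% for Irgm1. How the authors assigned reads that match several genes is not given in the sources used here, so the level of Gbp6 is uncertain.

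Both regulatory IRG genes fell. Igtp (ENSMUSG00000078853, chr11:58199556-58207591, plus strand) measured 56.1, 34.4 and 38.7 CPM in WT and 9.89, 11.8 and 11.7 CPM in KO. No KO library reached the lowest WT library. The means were 43.1 ± 11.5 and 11.1 ± 1.08 CPM (SD, n = 3), a fall of 3.85-fold (log2 fold change -1.95, SE 0.20, edgeR adjusted p = 0.000475). Irgm1 (ENSMUSG00000046879, chr11:48861968-48871683, minus strand) measured 96.3, 65.5 and 72.1 CPM in WT and 45.8, 46.7 and 44.1 CPM in KO. The groups did not overlap, and the fall was 1.71-fold (log2 fold change -0.78, SE 0.14, edgeR adjusted p = 0.00440). The ratio of Igtp to Irgm1 was 0.582, 0.525 and 0.537 in WT and 0.216, 0.252 and 0.267 in KO libraries. Igtp shares 7974 bases of its annotated span with Irgm2 on the same strand.

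The authors' deposited table, made with DESeq2, gave log2 fold changes of -1.54 for Gbp2, -1.44 for Gbp4, -0.42 for Gbp5, -2.47 for Gbp6, -1.93 for Igtp and -0.76 for Irgm1. In the authors' deposited table Gbp8 stood at -1.79 with an FDR of 0.0352, so that 7 of the 10 had an FDR below 0.05. The FDR there was 0.677 for Gbp3, 0.640 for Gbp7 and 0.250 for Gbp9.

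**Figure D2:**
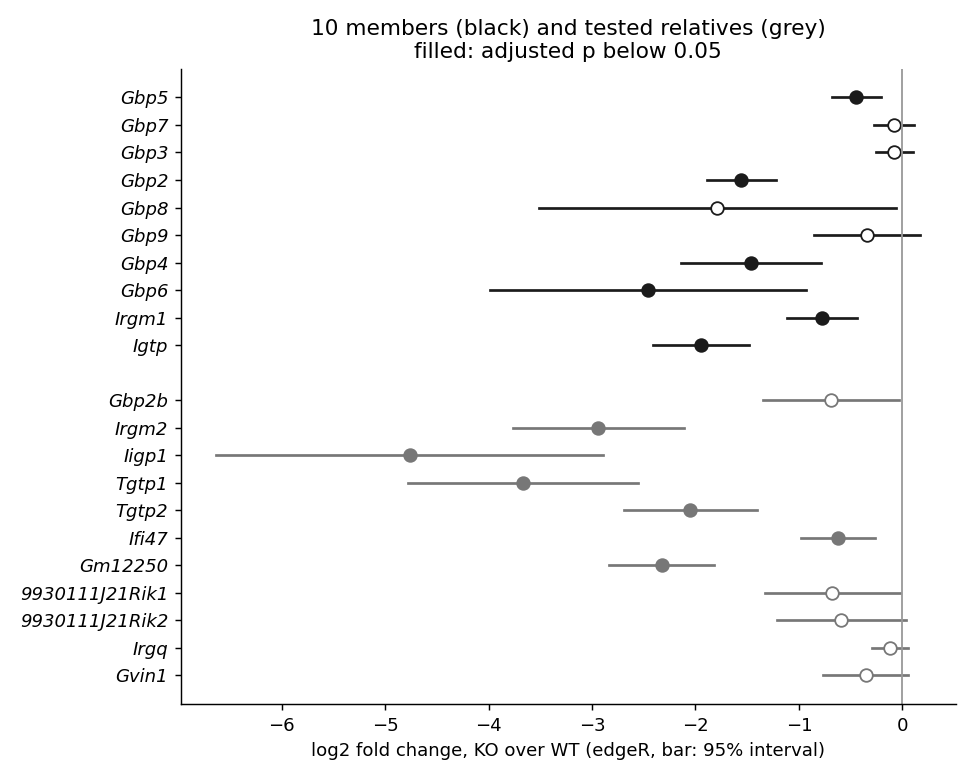
Log2 fold change of KO over WT with its 95% interval (edgeR) for the 10 genes in black and for 11 tested relatives in grey, with filled points at an adjusted p below 0.05. Gbp7 and Gbp3 lie at -0.08 and Igtp at -1.95, and the widest intervals belong to Gbp6, Gbp8 and Iigp1.

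Levels per length set the order of the transcripts, as TMM-normalised CPM per kilobase of the authors' exon length. In WT libraries Gbp2 (84.1 ± 15.4, SD, n = 3), Gbp7 (75.9 ± 5.90) and Gbp3 (72.9 ± 5.55) stood highest, and neighbours in this order overlapped. Next came Gbp9 (21.7 ± 6.21), Igtp (21.3 ± 5.68), Irgm1 (20.4 ± 4.23) and Gbp5 (17.8 ± 1.20), each of which overlapped the next. Gbp4 followed at 6.59 ± 2.81 CPM per kilobase, and then Gbp8 (0.822 ± 0.851) and Gbp6 (0.654 ± 0.562), which overlapped. In KO libraries Gbp7 (71.7 ± 1.68) and Gbp3 (69.2 ± 1.17) led and overlapped, and Gbp2 stood apart at 28.6 ± 2.14. Gbp9 (17.1 ± 3.25), Gbp5 (13.1 ± 1.37) and Irgm1 (11.9 ± 0.352) followed, each overlapping the next. Igtp (5.51 ± 0.536), Gbp4 (2.39 ± 0.331), Gbp8 (0.233 ± 0.0407) and Gbp6 (0.115 ± 0.0223) came last, with no overlap between neighbours.

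The summed level of the 10 transcripts was 1171, 1113 and 1009.9 CPM in WT and 803, 808 and 823 CPM in KO libraries. The composition of that sum shifted: Gbp2 made up 19.2 ± 2.14% in WT and 8.86 ± 0.642% in KO (SD, n = 3). Igtp made up 3.90 ± 0.853% and 1.37 ± 0.123%, while Gbp7 made up 39.0 ± 4.36% and 49.6 ± 0.531%. The share of Gbp5 was 4.96% in WT and 4.94% in KO.

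WT libraries varied more among themselves than KO libraries. The coefficient of variation was lower in KO for 9 of the 10 genes, with Gbp5 the exception, and its median over the 10 was 23.7% in WT and 10.1% in KO. Over all tested genes the medians were 12.3% and 8.64%, also lower in KO. The share of all tested genes with a lower coefficient in KO was not counted. WT replicate 1 was the highest of the 6 libraries for 8 of the 10, the exceptions being Gbp3 and Gbp7, and for 29.7% of all tested genes. Its level over the mean of the other WT libraries ranged from 0.902 for Gbp7 through 1.29 for Gbp2 and 1.53 for Igtp to 5.43 for Gbp8.

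As a description over the 6 libraries, the profile of each of the 10 genes was set beside the mean profile of all 10 (log2 of CPM plus 0.1, centred). Each gene is itself part of that mean, in which genes of wider range, such as Gbp6 and Gbp8, weigh more. Pearson's r with that mean was 0.996 for Irgm1, 0.990 for Gbp4, 0.980 for Gbp6, 0.966 for Igtp and 0.934 for Gbp2. It was 0.893 for Gbp8, 0.856 for Gbp5 and 0.796 for Gbp9, but 0.204 for Gbp3 and 0.151 for Gbp7. Among tested genes outside the 27 family genes listed here, the 5 most like the mean profile were Sorbs3 and Sgk1 (r = 0.998 each), Gm12185, Gsdmd and Rara, the last at 0.997. Gm12185 lies within the Irgm1 cluster, where it overlaps Tgtp1 by 6900 bases on the same strand, and 5.64% of the 50-base stretches of Tgtp1 occur in it, so that it is not independent of the family. Likeness of this degree was common, as 2471 of 14481 genes had r of at least 0.9. The 6 points share the genotype split. Gsdmd, which encodes the pore-forming protein gasdermin D, measured 74.6, 55.9 and 57.7 CPM in WT and 42.4, 44.5 and 44.4 CPM in KO.

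Of 17 further GBP, IRG and related interferon-inducible GTPase genes, 11 could be tested, and 6 were lower and 0 higher in KO, with a median log2 fold change of -0.69. No gene of the 11 was higher at an unadjusted p below 0.05, nor by DESeq2 or limma. Irgm2, the remaining regulatory IRG, measured 50.3, 20.7 and 31.4 CPM in WT and 3.58, 4.08 and 5.58 CPM in KO. Its groups did not overlap, and it fell further than Igtp or Irgm1 did in point estimate (log2 fold change -2.94, SE 0.35, edgeR adjusted p = 0.000906), a difference that was not tested. Iigp1, an effector IRG that loads onto parasite vacuoles, measured 53.8, 8.54 and 14.7 CPM in WT and 0.525, 1.17 and 1.04 CPM in KO (log2 fold change -4.76, SE 0.79, edgeR adjusted p = 0.00308). Even the lowest WT library stood far above every KO library.

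The near-identical effector genes Tgtp1 and Tgtp2 (edgeR log2 fold changes -3.67 and -2.05) fell as well, with 81.2% and 86.6% of their 50-base stretches shared with other genes, so that their separate levels are uncertain. Gm12250 fell by 2.33 on the log2 scale. Ifi47 measured 66.4, 44.7 and 47.8 CPM in WT and 33.0, 35.5 and 34.9 CPM in KO, and its fall (log2 fold change -0.62, edgeR adjusted p = 0.0128) did not pass without KO replicate 2 (adjusted p = 0.0510). Gbp2b, the closest relative of Gbp2 on chromosome 3, stood near 1.05 CPM in WT and 0.639 CPM in KO and did not pass (log2 fold change -0.69, edgeR adjusted p = 0.0719). Gbp10 and Gbp11 had at most 6 counts in any library and were not tested.

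The protein-coding genes in and around the 4 clusters did not share 1 direction. Among protein-coding genes within 500 kb of the chromosome 3 cluster, 4 were tested and Pdlim5 fell (log2 fold change -0.41), while Kyat3, Gtf2b and Pkn2 did not pass. Around the chromosome 5 cluster, Lrrc8d fell (-0.67) and Abcg3 (1.12) and Lrrc8c (0.23) rose, of 5 tested. Around the Irgm1 cluster of chromosome 11, 4 of 12 were lower and 1 was higher. Of the 4 lower, Gm12185 (-3.93) and Gm5431 (-1.49) lie inside the cluster and share sequence with its GTPase genes, since 21.5% of the 50-base stretches of 9930111J21Rik1 occur in Gm5431. Around the Igtp cluster 1 of 10 was lower, 4930438A08Rik (-2.68). The 4 higher genes there were Larp1 (0.67), Zfp692 (0.61), Mrpl22 (0.45) and Galnt10 (0.34). Among all tested genes 28.5% were lower and 23.9% were higher.

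**Figure D3:**
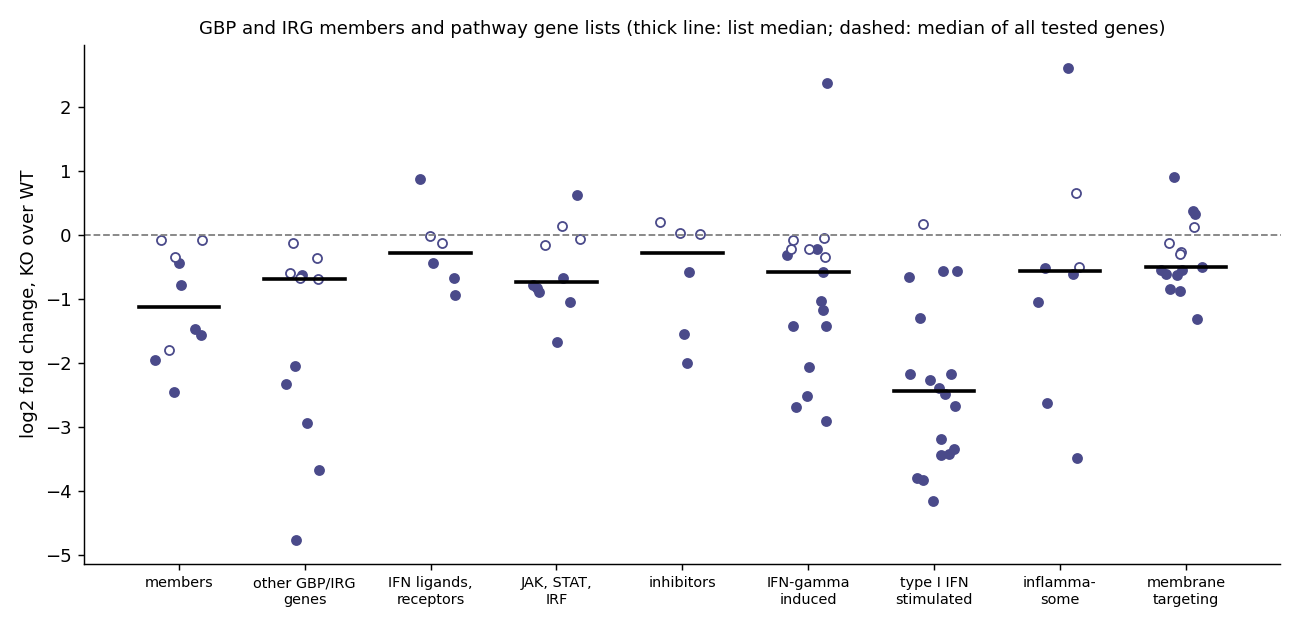
Log2 fold change of KO over WT for each tested gene of the 10 GBP and IRG members, their relatives and 7 pathway lists, with filled points at an edgeR adjusted p below 0.05 and a thick line at the list median. The medians run from -0.28 for ligands and receptors and for inhibitors to -2.44 for genes known as type I interferon stimulated.

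The pathway that induces these GTPases was read in the same order, from ligand to target. Counts in the lists of relatives, pathway genes and markers stand beside 28.5% of all tested genes lower and 23.9% higher. Of 10 ligand and receptor genes 6 were tested, with 3 lower and 1 higher. Ifng, the ligand gene itself, had 26, 5 and 5 counts in WT and 1 count in each KO library and was not tested. The ratio of its summed normalised counts, WT over KO, was 16.9 (95% counting interval 5.34 to 85.7), and without WT replicate 1 it was 6.61 (1.70 to 37.4). Ifngr1, the ligand-binding receptor chain, measured 176, 198 and 191 CPM in WT and 103, 99.1 and 93.0 CPM in KO. Its groups lay far apart, and its log2 fold change was -0.94 (SE 0.08, edgeR adjusted p = 0.000219), below the threshold under all 18 alternatives. Ifngr2, the second chain, fell from 118 ± 10.2 to 74.0 ± 6.48 CPM (log2 fold change -0.67, edgeR adjusted p = 0.00192). Il12a, which encodes a subunit of interleukin 12, was higher in KO (log2 fold change 0.87, edgeR adjusted p = 0.00576). Ifnb1 and Ifna4 had 0 counts in every library.

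Of 10 tested JAK, STAT and IRF genes, 6 were lower and 1 was higher, with a median log2 fold change of -0.73. Irf1, a transcription factor that acts on GBP promoters, measured 234, 160 and 170 CPM in WT and 95.3, 102 and 75.8 CPM in KO (log2 fold change -1.04, edgeR adjusted p = 0.00312). Its groups did not overlap. Jak2, the kinase bound to Ifngr2, fell by 0.90 on the log2 scale. Irf8, a factor of B and myeloid cells, rose from 155 ± 12.3 to 238 ± 32.9 CPM (log2 fold change 0.62, edgeR adjusted p = 0.00482), and Jak1 and Tyk2 did not pass.

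Of 6 inhibitors of this signalling, 3 were lower and 3 did not pass. Socs1, which blocks JAK kinases after interferon gamma, measured 38.4, 32.6 and 30.9 CPM in WT and 12.9, 12.7 and 9.17 CPM in KO (log2 fold change -1.55, edgeR adjusted p = 0.000522). Usp18 and Ptpn6 also fell, while Socs3, Ptpn2 and Pias1 did not pass.

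Of 17 tested genes known to be induced by interferon gamma, 11 were lower and 1 was higher, with a median of -0.57. Nlrc5, the activator of MHC class I genes, fell from 244 ± 45.8 to 58.2 ± 4.09 CPM (log2 fold change -2.07, edgeR adjusted p = 0.000125). The class I genes B2m (log2 fold change -1.42), Tap1 (-1.17) and Psmb9 (-1.02) fell too, as did Cd274 (-1.41), which encodes PD-L1. Serpina3g, a protease inhibitor, went the other way, at 4.49, 0.793 and 1.83 CPM in WT and 13.6, 13.6 and 8.78 CPM in KO (log2 fold change 2.37, edgeR adjusted p = 0.00939). Among 18 genes known as type I interferon stimulated, 17 were lower, with a median of -2.44, and Mx2 did not pass. Rsad2, which encodes the antiviral enzyme viperin, lay lowest at a log2 fold change of -4.15.

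Of 8 tested inflammasome genes, the machinery that GBP proteins help to activate, 5 were lower and 1 was higher. Without WT replicate 1 Casp1, which encodes the inflammasome protease, passed as a second higher gene (log2 fold change 1.19, edgeR adjusted p = 0.0108). Nlrp3, a sensor, fell from 28.5 ± 13.3 to 4.62 ± 0.534 CPM (log2 fold change -2.62, edgeR adjusted p = 0.00112). Aim2, a sensor of cytosolic DNA, measured 11.3, 3.26 and 6.46 CPM in WT and 44.1, 42.9 and 39.1 CPM in KO. It rose, opposite to Nlrp3 and to the GTPases (log2 fold change 2.60, SE 0.38, edgeR adjusted p = 0.00201). Of 15 genes for the ubiquitin-like conjugation machinery and ubiquitin ligases that direct GBP and IRG proteins to vacuoles, 8 were lower and 3 higher, and 5 were lower without KO replicate 3. Atg7 (log2 fold change -0.87) fell and Gabarapl1 (0.90), an Atg8 family member, rose.

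**Figure D4:**
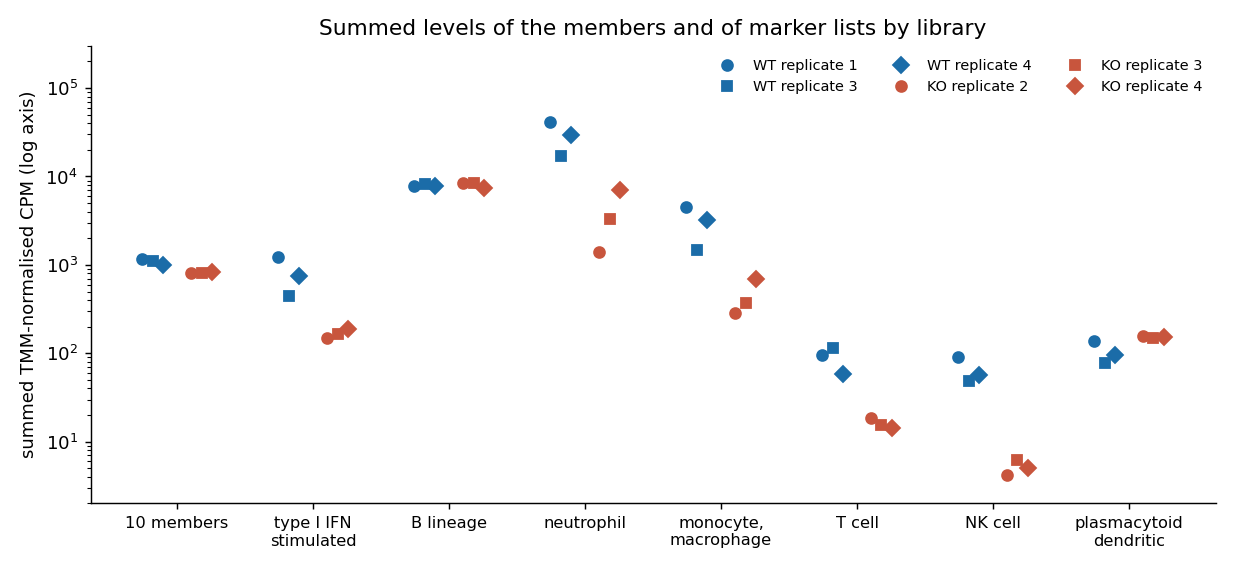
Summed level (TMM-normalised CPM, log axis) of the 10 GBP and IRG transcripts, of type I interferon stimulated genes and of cell type markers in each library, with WT in blue and KO in red. The neutrophil sum spans 16881 to 41149.5 CPM in WT and 1391 to 7011 CPM in KO, while the B-lineage sums overlap.

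Markers of myeloid cells, which also express GBP and IRG genes after interferon exposure, moved with genotype beside the GTPases. A sort for B220 is meant to leave such cells out, and where their transcripts came from was not tested. The neutrophil sum was 41149.5, 16881 and 29642 CPM in WT and 1391, 3299 and 7011 CPM in KO. The monocyte and macrophage sum was 1487 to 4500 CPM in WT and 288 to 699 CPM in KO. The T cell sum was 58.8 to 114 CPM in WT and 14.1 to 18.3 CPM in KO, with 6 of 8 tested genes lower, 3 without KO replicate 3 and 11 without WT replicate 3, where more genes reached the filter. The NK cell sum was 48.0 to 90.9 and 4.25 to 6.17 CPM, with 2 of 4 tested genes lower and 7 lower without WT replicate 3. Plasmacytoid dendritic cell markers summed to 77.3 to 138 CPM in WT and 149 to 158 CPM in KO, with 2 of 5 tested genes lower (0 without WT replicate 1, KO replicate 2 or KO replicate 3, and 4 without WT replicate 3) and 1 higher. Tcf4, which B cells also express, carried that sum at 70.3 to 97.2 CPM in WT and 145 to 154 CPM in KO, and the rest of the list summed to 7.002 to 40.5 CPM in WT and 4.20 to 8.91 CPM in KO. Endothelial and stromal markers summed to 101 to 107 CPM in WT and 101 to 123 CPM in KO, nearly all of it Pecam1. Without Pecam1 their sum was 7.002 to 16.3 CPM in WT and 1.70 to 2.61 CPM in KO, with no overlap, and Emcn and Col1a1 were lower among 4 tested genes. Sums of conventional dendritic and erythroid markers overlapped between groups, the latter with 24.7 to 242 CPM in WT and 96.4 to 123 CPM in KO. Of all marker genes, Tek, an endothelial receptor, was at 0 counts in every library. The part of these cells in the results was not tested beyond the covariate fits given below. In bulk samples fewer cells of a type and less RNA per cell cannot be told apart.

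Within each genotype the sums and the GTPases can be read side by side. KO replicates 2 and 4 differed in the neutrophil sum (1391 and 7011 CPM), and their levels were 74.7 and 75.2 CPM for Gbp2, 45.8 and 44.1 CPM for Irgm1, 10.1 and 9.86 CPM for Gbp4, and 9.89 and 11.7 CPM for Igtp. In the same KO libraries Gbp5 measured 40.7 and 43.9 CPM and Gbp6 0.382 and 0.490 CPM. WT replicates 3 and 4 also differed in the neutrophil sum, by a smaller ratio (16881 and 29642 CPM). Their levels were 214 and 171 CPM for Gbp2, 24.3 and 20.9 CPM for Gbp4, and 34.4 and 38.7 CPM for Igtp. In the same WT libraries Irgm1 measured 65.5 and 72.1 CPM, Gbp5 55.4 and 50.4 CPM, and Gbp6 1.01 and 1.77 CPM. WT replicate 1, the highest in the neutrophil and monocyte sums, was also the highest for all 6 GTPases that fell.

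Each covariate was the centred mean of log2 CPM over the markers of a list, with every gene weighted alike, and not the sum given above. With the neutrophil covariate, 0 of the 10 genes passed by edgeR (2 at an unadjusted p below 0.05), and 542 of all 14481 tested genes passed. Genotype accounts for 80.4% of the variance of that covariate in these 6 libraries, so that the covariate and genotype can be told apart only in part. The log2 fold change of Gbp2 was then -1.54 (SE 0.33, adjusted p = 0.0559), that of Igtp -1.38 (adjusted p = 0.136), that of Irgm1 -0.62 (adjusted p = 0.404), that of Gbp4 -1.15 (adjusted p = 0.439), that of Gbp5 -0.35 (adjusted p = 0.503) and that of Gbp6 -0.60 (adjusted p = 0.872). With the monocyte and macrophage covariate, of whose variance genotype accounts for 80.5%, Gbp2 (log2 fold change -1.34, adjusted p = 0.0260) and Igtp (-1.06, adjusted p = 0.0174) passed. Gbp4 (-0.42), Gbp5 (-0.38) and Irgm1 (-0.14) did not, and Gbp6 turned to 0.79. Under these covariates 3 and 11 of the 91 tested relatives and pathway genes were lower, against 59 without one. Ifngr1 passed under both covariates.

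**Figure D5:**
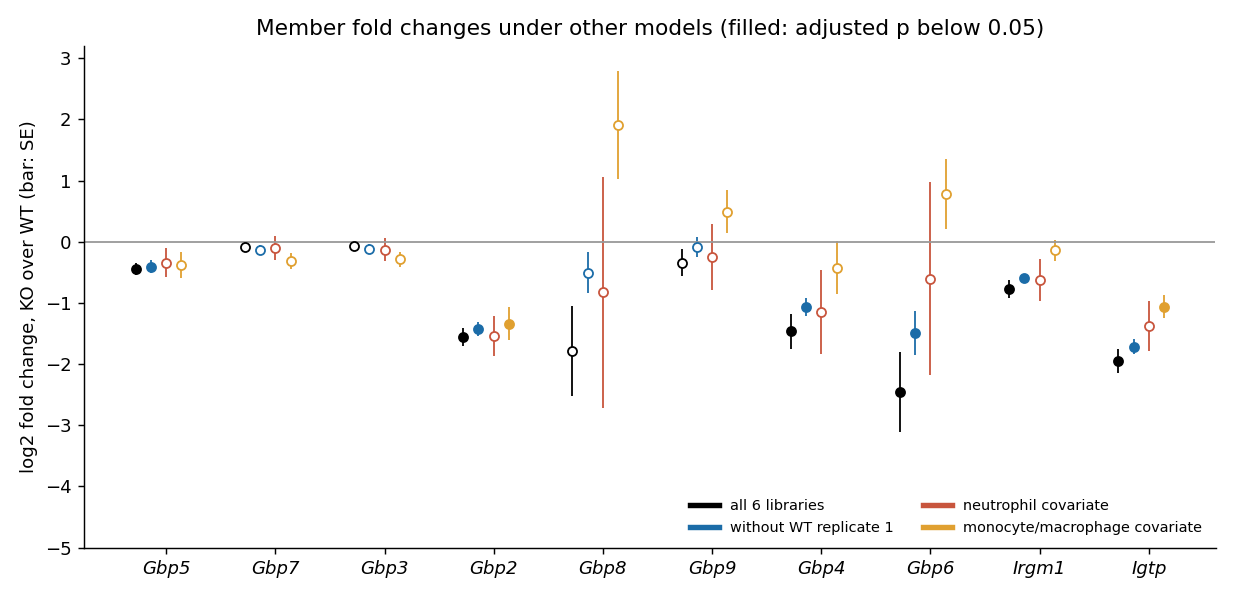
Log2 fold change of KO over WT with its SE for the 10 genes from all 6 libraries, without WT replicate 1, and with a neutrophil or a monocyte and macrophage marker covariate, with filled points at an adjusted p below 0.05. Gbp2 stays between -1.56 and -1.34, while Gbp6 runs from -2.46 to 0.79.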

How the data were processed

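Raw counts per Ensembl gene were deposited by the authors for 6 mRNA libraries (3 WT, 3 KO), with exon length and GRCm38.p6 positions per the file headers and GRCm38 (mm10) named in the submitters' processing notes. No aligner or counter is given in the sources used here. The authors' comparison table holds log2 fold changes and p-values with FDR from DESeq2, per the file headers.

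Counts were analysed with edgeR 4.0.16 in R 4.3.3: filterByExpr (minimum count 10, minimum total 15), TMM factors (0.932 to 1.05) and the quasi-likelihood F test on genotype, with Benjamini-Hochberg adjustment over 14481 genes and a threshold of 0.05. Levels are TMM-normalised CPM, on which 3 counts equal 0.0979 to 0.182 CPM. The SE is the log2 fold change divided by the square root of F. Intervals cover counting error only where named as counting intervals. The procedure was tested on simulated counts with 200 changed genes and the same dispersion for every gene and library. Far more genes passed here and WT libraries varied more than KO libraries, so that test does not cover these features. Replicates differed beyond sampling noise (chi-square per degree of freedom 11.2 to 79.6).

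Alternatives were DESeq2 1.42.0, limma 3.58.1, other scalings and filters, and mean log2 marker levels as covariates. Further alternatives were the replicate number as a block and each library left out. Genes named were all 10 members, their relatives, and members of the pathway and marker lists; the 5 most alike genes were ranked by r. Some genes of these lists are not reported here. The members and lists were chosen with earlier results of these data known. Python 3.11.15 and matplotlib 3.10.9 made the figures.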

Additional observations from a re-analysis of the deposited data

How the results depend on the processing

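The count of GBP and IRG genes lower in KO was 6 of 10 and stayed between 5 and 7 under 16 of 18 alternatives. The exceptions were the neutrophil covariate (0) and the monocyte and macrophage covariate (2), and the count of relatives and pathway genes lower in KO, 59, was 3 and 11 under the same covariates. Leaving out each library in turn gave 5 to 7 of the 10 and 48 to 65 of the relatives and pathway genes. Directions turned for genes that had not passed: on library totals alone, which moved the median of all genes to 0.11, Gbp3 stood at 0.036 and Gbp7 at 0.029. With the monocyte and macrophage covariate the log2 fold changes were 0.79 for Gbp6, which had passed, 1.91 for Gbp8, 0.49 for Gbp9, 0.064 for Ifi47, which had passed, 0.50 for 9930111J21Rik1, 0.72 for 9930111J21Rik2 and 0.33 for Gvin1. With the neutrophil covariate 9930111J21Rik1 stood at 0.056 and Gvin1 at 0.10. The cause was not tested. Of the relatives 10 were lower with limma-voom or with no filter on low counts, against 6; with no filter 11 T cell, 7 NK cell and 4 plasmacytoid dendritic cell markers were lower, against 6, 2 and 2. Only numbers 3 and 4 occur in both genotypes, and the deviations of same-numbered libraries correlated at 0.03 and 0.16, so that the numbers were not taken to pair libraries. With the replicate number as a block 6 of the 10 and 57 relatives and pathway genes were lower, and 6767 genes passed in all. Gbp6 and Gbp8 had the fewest counts of the 10, 8 to 89 per library, and the widest spread between WT libraries, with coefficients of variation of 86.0% and 104%.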
